A study of Drosophila melanogaster with 12 samples.

Results

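The genes described here are 8 heat shock and chaperone genes of Drosophila melanogaster, namely the small heat shock protein genes Hsp22, Hsp23, Hsp26 and Hsp27 and the constitutive chaperone genes DnaJ-1, Hsp83, Hsc70-4 and Hsp60. They were taken by symbol from the 14161 gene symbols of the deposited count tables. RNA was sequenced from whole embryos of 4 groups of 3 libraries each. The groups were embryos from SHMT[X238] germline clones labelled 1.5–2.5 hr late blastoderm, wild-type (OregonR) embryos with that label, embryos from SHMT[X238] germline clones labelled 0–1 hr preblastoderm, and OregonR embryos with that label. SHMT encodes serine hydroxymethyl transferase, an enzyme of C1 metabolism, and X238 is a stop codon allele, so the level of its RNA is no check of the genotype. Per the study, the SHMT chromosome was marked with pn, while the wild type was OregonR. The allele and the rest of the strain background can therefore not be told apart in the genotype comparisons. The germline clones were made by heat shock-driven Flipase in the larvae that became the mothers and were selected with ovo[D]. The embryos thus came from eggs of a mutant germline, in mothers whose other cells were mostly heterozygous. The study describes female embryos from such clones as zygotically heterozygous. Whether OregonR larvae received the same heat shock is not given in the sources used here, and embryos were not heat-shocked by any protocol in those sources. Each library came from pooled embryos collected by time after egg lay. The labels do not say that replicates came from separate parents, so p-values measure only the spread between these libraries.

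Heat shock proteins are molecular chaperones, which keep other proteins from aggregating or help them to fold. The small heat shock proteins hold unfolded proteins without using ATP, and in the fly ovary Hsp26 and Hsp27 are made during oogenesis with no stress. Hsp83 is the Drosophila Hsp90, whose maternal RNA is a textbook case of an RNA cleared from the embryo by the RNA-binding protein Smaug and kept at the posterior pole, where the germ cells form. Hsc70-4 is the main cytoplasmic Hsp70 cognate, DnaJ-1 is an Hsp40 that passes clients to Hsp70, and Hsp60 is the chaperonin of the mitochondrial matrix.

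Per library, 21045142 to 35106444 reads fell in genes. Levels are given as CPM, the reads of a gene over those of its library, scaled to a common total, after correction of the totals by edgeR's TMM method. The stage labels went against the stage markers. The summed level of 12 zygotic blastoderm genes such as eve, ftz and slam was 160.2 to 260.1 CPM in SHMT and 179.6 to 275 CPM in wild-type libraries labelled 1.5–2.5 hr, against 4587 to 8471 CPM in SHMT and 8293 to 11905 CPM in wild-type libraries labelled 0–1 hr. The sum of 10 maternal genes such as osk, nos and bcd ran the other way, from 2600.0 to 3524 CPM in the 6 libraries labelled 1.5–2.5 hr and from 384 to 917 CPM in the 6 labelled 0–1 hr. The study lists slam and the noncoding RNA Hsromega among the genes that rise from 0–1 hr to 1.5–2.5 hr. Here Hsromega was 32.6-fold lower at the 1.5–2.5 hr label in wild type and 14.4-fold lower in SHMT, by edgeR. If the labels were exchanged, each stage difference and each interaction below would turn its sign and the 2 genotype comparisons would trade places. Whether they were exchanged was not tested. The names of the deposited files also mark the collections in another way than the labels do, with marks that the sources used here do not explain. The stages are therefore called by their labels. Replicates differed more at the 0–1 hr label in most pairs. There the chi-square of the counts over its degrees of freedom was 59.6 and 64.2 between replicate 3 of SHMT and the other replicates of its group, 12.3 between those 2, and 55.2 to 67.8 between the wild-type replicates, while at the 1.5–2.5 hr label it was 22.0 to 43.9 in SHMT and at most 15.6 in wild type. Marker genes of follicle cells summed to at most 4.68 CPM and those of late embryos to at most 4.94 CPM in any library. Since these are whole embryos, fewer cells of a type and less RNA per cell cannot be told apart.

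Hsp22 had 0 counts in each of the 12 libraries. A count of 0 allows up to 3 reads, which was 0.0855 to 0.143 CPM per library before the TMM correction, counting error only. In the Ensembl annotation of BDGP6, a later build than the dm3 of the files, all exon bases of Hsp22 (100%) are shared with CG4456, whose older symbol Hsp67Bb had 2 counts over the 12 libraries. Reads that fall in several genes were set aside as ambiguous by the counting program, 1.33 to 1.53% of reads per library. Whether the overlap had a part in the 0 counts was not tested, and an absent RNA and uncounted reads cannot be told apart here. Hsp22 entered no test. The other 7 members had a mean of at least 50 counts in at least 1 group, the minimum for the test, and were tested among 6884 genes.

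**Figure D1:**
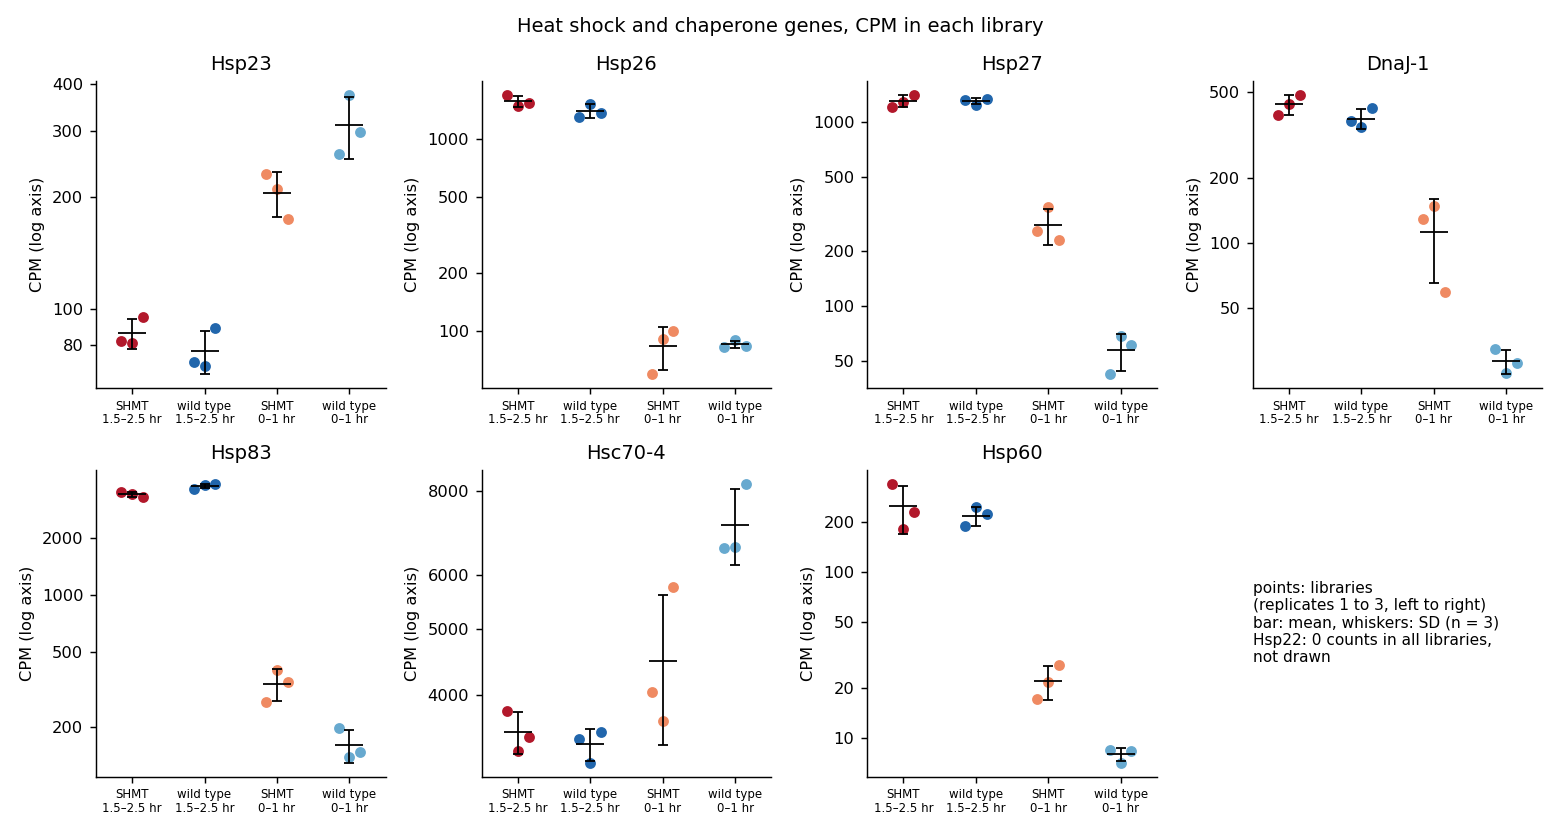
CPM of the 7 counted members in each of the 12 libraries (log axes), with the mean and SD of each group of 3. Hsp26, Hsp27, DnaJ-1, Hsp83 and Hsp60 stood higher in all 6 libraries labelled 1.5–2.5 hr, Hsp23 stood lower in them, and Hsp27, DnaJ-1, Hsp83 and Hsp60 stood higher in SHMT than in wild-type libraries labelled 0–1 hr.

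SHMT and wild-type embryos differed in most members at the 0–1 hr label. Hsp27, DnaJ-1, Hsp60 and Hsp83 were higher in SHMT and Hsc70-4 and Hsp23 were lower, while Hsp26 did not pass the test. A gene counts as called when its p from edgeR's quasi-likelihood test is under 0.05 after Benjamini-Hochberg adjustment across every tested gene. Of the 7 members tested, 4 were called higher, where 32.9% of all genes tested were, and 2 lower, where 25.8% of all genes were. Since 58.7% of all genes were called in either direction, calls as such were common at this label. The same 4 members lay wholly above wild type, where 32.7% of all genes did, and the same 2 wholly below, where 27.3% did. An edgeR call with over 4-fold was made for 1 member, Hsp27, and for 4.08% of all genes.

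Hsp27, a small heat shock protein gene, moved most. SHMT libraries labelled 0–1 hr had 256, 344 and 229 CPM, against 42.8, 68.6 and 61.1 CPM in wild-type libraries. The lowest SHMT library was thus above the highest wild-type library by a wide margin. The fold was 4.81, or 2.27 ± 0.18 on the log2 scale (SE, edgeR, adjusted p = 2.11e-06), and with each library left out in turn the log2 difference was 2.06 to 2.41. In the annotation, 49 exon bases of Hsp27 (3.00%) are shared with a pseudogene, CR43483.

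Hsp26 lies in the same cluster of small heat shock genes on arm 3L as Hsp27, with Hsp67Ba, an antisense RNA and Hsp23 between them, and it did not move with it. It stood at 59.4, 90.3 and 99.2 CPM in SHMT libraries labelled 0–1 hr, against 82.1, 89.1 and 83.4 CPM in wild-type libraries. The groups overlapped. The log2 difference was −0.03 with a 95% interval of −0.37 to 0.30 (edgeR, adjusted p = 0.868), and its sign turned in some alternative settings, with 0.19 where library sizes alone were used and 0.21 without the 2 libraries with over 11% of reads outside genes, in neither of which it passed the test. The level of Hsp27 relative to Hsp26 in the same library (log2 CPM of Hsp27 minus log2 CPM of Hsp26) was 2.11, 1.93 and 1.20 in the SHMT libraries labelled 0–1 hr, against −0.94, −0.38 and −0.45 in the wild-type libraries. At the 1.5–2.5 hr label this difference was −0.48, −0.20 and −0.14 in SHMT and 0.02, −0.29 and −0.04 in wild-type libraries. The 3 SHMT libraries labelled 0–1 hr thus stood above the other 9 in this ratio, which is a description with no test and is not corrected for the lengths of the genes.

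Hsp23 is the direct neighbour of Hsp27 on the same strand, and it went the other way. It had 229.9, 209 and 175 CPM in SHMT libraries labelled 0–1 hr, against 259.9, 375 and 299 CPM in wild-type libraries. All SHMT libraries were below all wild-type libraries, though the nearest pair was close. It was 1.52-fold lower in SHMT (log2 −0.60 ± 0.15, SE, edgeR, adjusted p = 0.00492). When TMM was replaced by plain library sizes, which moves the median log2 difference of all genes to 0.25 in place of 0.02, Hsp23 no longer passed (log2 −0.38, edgeR, adjusted p = 0.0674), and all genes split into 3048 higher and 860 lower calls in place of 2266 and 1774. The 3 counted small heat shock members thus gave 1 call higher, 1 call lower and 1 gene with no call. Of all genes tested, 32.9% were called higher and 25.8% lower at this label.

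Among the constitutive chaperones, DnaJ-1 differed most. It stood at 129.5, 148 and 59.3 CPM in SHMT libraries labelled 0–1 hr, against 32.2, 25.0 and 27.8 CPM in wild-type libraries. The groups did not overlap, though replicate 3 of SHMT had less than the other replicates of its group. The fold was 3.96 (log2 1.99 ± 0.27, SE, edgeR, adjusted p = 9.22e-05), just under 4-fold, and without that replicate the log2 difference was 2.29.

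Hsp60, the mitochondrial chaperonin, was scarce at this label in both genotypes. SHMT libraries labelled 0–1 hr held 17.2, 21.6 and 27.5 CPM, against 8.42, 7.08 and 8.35 CPM in wild-type libraries. Every SHMT library was above every wild-type library, by a fold of 2.77 (log2 1.47 ± 0.24, SE, edgeR, adjusted p = 0.000364). The row bears the older symbol Hsp60 and is the X-linked gene now called Hsp60A.

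Hsp83 stood at 270.2, 401 and 348 CPM in SHMT libraries labelled 0–1 hr, against 197, 139 and 148 CPM in wild-type libraries. The groups did not overlap and differed 2.11-fold (log2 1.07 ± 0.15, SE, edgeR, adjusted p = 9.95e-05).

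Hsc70-4, the member with the highest level at this label, also per kb of exon, was lower in SHMT. It had 4048, 3666 and 5776 CPM in SHMT libraries, against 6579, 6616 and 8190.2 CPM in wild-type libraries. Replicate 3 of each genotype was its highest, and all SHMT libraries stayed below all wild-type libraries. It was 1.59-fold lower in SHMT (log2 −0.66 ± 0.15, SE, edgeR, adjusted p = 0.00274). Of the 4 constitutive chaperones, 3 were thus called higher and 1 lower, where 32.9% of all genes tested were called higher and 25.8% lower. Their median log2 difference was 1.27, against a median of 0.02 over all genes tested.

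Some of the stage markers differed between the genotypes at the 0–1 hr label. By edgeR 5 of the 10 maternal genes were called higher in SHMT and 0 lower (median log2 difference 0.93). The other 5 were not called. Of the 12 zygotic genes 5 were called lower and 0 higher (median −0.97), and 7 were not called. Of all genes tested, 32.9% were called higher and 25.8% lower. The summed zygotic genes had 4587, 4910.1 and 8471 CPM in the SHMT libraries, against 11905, 8293 and 11275 CPM in the wild-type libraries, and replicate 3 of SHMT lay within the wild-type range. That library had the lowest Hsp23, Hsp27 and DnaJ-1 and the highest Hsp26, Hsc70-4 and Hsp60 of its group. Of 8 genes of the germ plasm, where Hsp83 RNA is kept, 5 were called higher in SHMT and 0 lower (median 0.70), beside the 32.9% higher of all genes. This list is not independent, 5 of the 8 being maternal markers as well. All genes of these lists passed the count minimum for the test. The part of the stage of the embryos in the differences of the members was not tested.

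**Figure D2:**
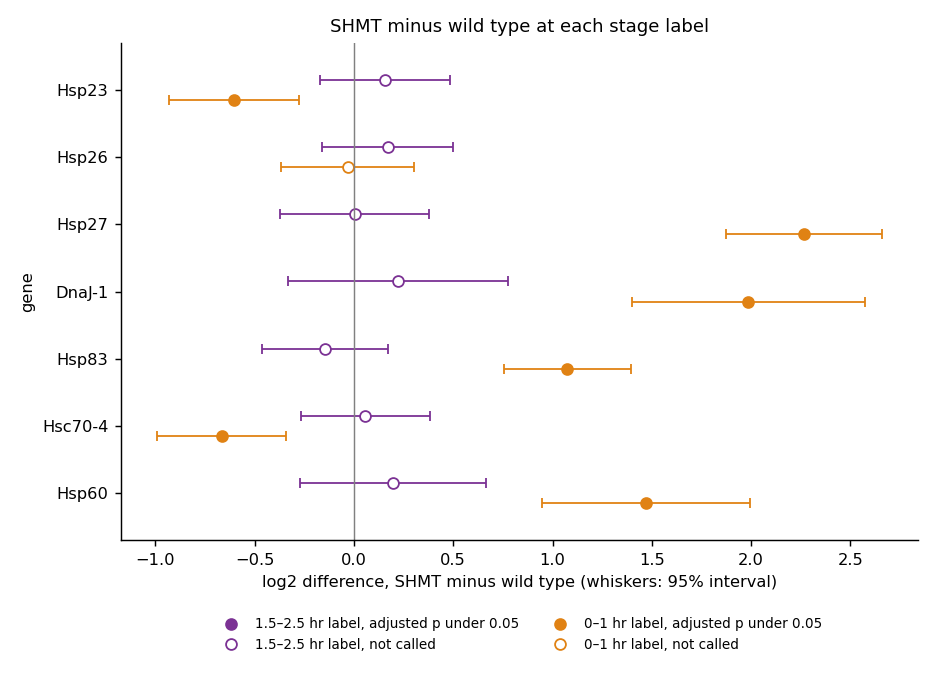
Log2 difference, SHMT minus wild type, of the 7 tested members at the 1.5–2.5 hr label and at the 0–1 hr label, with 95% intervals (edgeR); filled points have an adjusted p under 0.05. At the 0–1 hr label the differences ran from −0.66 for Hsc70-4 to 2.27 for Hsp27, and at the 1.5–2.5 hr label each interval held 0.

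At the 1.5–2.5 hr label no difference of a member between the genotypes passed the test. By edgeR 0 of the 7 members were called, where 7.0% of all genes tested were (2.85% higher and 4.15% lower), and 0 had an unadjusted p under 0.05. DESeq2 called 0 as well, and 0 members were past 4-fold, where 1.18% of all genes were. The log2 differences, SHMT minus wild type, ran from −0.15 for Hsp83 to 0.22 for DnaJ-1, with adjusted p-values of 0.633 to 0.998 and 95% intervals that together spanned −0.46 to 0.77. A difference of a member within its own interval remains possible with these libraries.

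Hsp27, which differed 4.81-fold at the other label, stood at 1214, 1284 and 1403 CPM in SHMT libraries labelled 1.5–2.5 hr, against 1317, 1245 and 1331 CPM in wild-type libraries. The log2 difference was 0.00 with a 95% interval of −0.37 to 0.38. Hsp83 was the only member whose groups did not overlap, with 3496, 3407 and 3309 CPM in SHMT, against 3642, 3808 and 3849 CPM in wild type. Among all genes tested, 22.3% lay wholly lower in SHMT in this way, and the interval of Hsp83 was −0.46 to 0.17. DnaJ-1 had 393, 439.8 and 485 CPM in SHMT libraries and 366, 343 and 421 CPM in wild-type libraries, and its groups overlapped. Hsp60 varied most at this label, with 339.8, 182 and 228 CPM in SHMT and 188, 245 and 222 CPM in wild-type libraries, and without replicate 1 of SHMT its log2 difference was −0.09 in place of 0.20. That replicate alone was above all wild-type libraries. For Hsp26 the values were 1691, 1478 and 1544 CPM in SHMT libraries, against 1302, 1523 and 1366 CPM in wild-type libraries. Hsc70-4 had 3795, 3310.5 and 3473 CPM in SHMT and 3444, 3181 and 3535 CPM in wild type, and Hsp23 had 81.9, 81.3 and 95.2 CPM in SHMT and 72.2, 70.5 and 89.1 CPM in wild type. Each of these last 3 overlapped between the genotypes.

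Between the stage labels, 5 of the 7 members were higher and 2 lower at 1.5–2.5 hr in each genotype. In wild-type embryos Hsp60, Hsp83, Hsp27, Hsp26 and DnaJ-1 were called higher by edgeR, where 45.4% of all genes were, and Hsc70-4 and Hsp23 lower, where 45.9% were. With 91.3% of all genes called in either direction, a call says little here, and the sizes are given instead. The groups of all 7 did not overlap, 5 above and 2 below, where 45.6% of all genes lay wholly above and 46.3% wholly below. With over 16-fold, the size the study used for stages, 4 members passed in wild type, where 16.4% of all genes did.

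Hsp60 had the largest change with label in wild type, with a mean of 218 ± 28.6 CPM at 1.5–2.5 hr and 7.95 ± 0.753 CPM at 0–1 hr (SD, n = 3 each). This was 27.3-fold, a log2 difference of 4.77 ± 0.26 (SE, edgeR, adjusted p = 3.57e-09). Hsp83 averaged 3766 ± 109 CPM at 1.5–2.5 hr and 161 ± 31.6 CPM at 0–1 hr, 23.4-fold, and Hsp27 averaged 1298 ± 46.3 CPM at 1.5–2.5 hr and 57.5 ± 13.3 CPM at 0–1 hr, 22.6-fold. For each of these 3 genes the lowest library at 1.5–2.5 hr was far above the highest at 0–1 hr. Hsp26 was 16.5-fold higher, with 1397 ± 114 CPM at 1.5–2.5 hr and 84.9 ± 3.72 CPM at 0–1 hr. DnaJ-1 was 13.3-fold higher, with 377 ± 40.2 CPM at 1.5–2.5 hr and 28.3 ± 3.64 CPM at 0–1 hr.

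Hsc70-4 and Hsp23 ran against the other members. In wild type Hsc70-4 averaged 3387 ± 184 CPM at 1.5–2.5 hr and 7129 ± 920 CPM at 0–1 hr, a log2 difference of −1.07 ± 0.15 (SE, edgeR, adjusted p = 2.01e-05). Hsp23 averaged 77.3 ± 10.3 CPM at 1.5–2.5 hr and 311 ± 58.3 CPM at 0–1 hr, 4.02-fold lower at 1.5–2.5 hr (edgeR, adjusted p = 7.61e-08). The small heat shock genes, grouped here as maternal, thus had no common direction, since Hsp26 and Hsp27 changed in the direction of the maternal markers and Hsp23 in that of the zygotic ones.

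In SHMT embryos the same 5 members were called higher at the 1.5–2.5 hr label by edgeR, where 42.8% of all genes were, and the same 2 lower, where 44.6% were, 87.4% in either direction. The 5 higher members did not overlap between the labels, where 43.5% of all genes lay wholly above, and of the lower ones Hsp23 did not, where 45.4% lay wholly below. Here Hsp26 had the largest change, 18.9-fold, with a mean of 1571 ± 109 CPM at 1.5–2.5 hr and 83.0 ± 20.9 CPM at 0–1 hr. It was the only member past 16-fold, where 9.47% of all genes passed. Hsp60 was 11.3-fold higher (250.0 ± 81.1 CPM at 1.5–2.5 hr, 22.1 ± 5.15 CPM at 0–1 hr) and Hsp83 higher by 3.33 on the log2 scale (3404 ± 93.2 CPM at 1.5–2.5 hr, 339.6 ± 65.7 CPM at 0–1 hr). None of these 3 genes differed between the genotypes past the threshold at 1.5–2.5 hr, while Hsp60 and Hsp83 did at 0–1 hr. Hsp27 was 4.71-fold higher, with 1300.2 ± 95.6 CPM at 1.5–2.5 hr and 276 ± 60.4 CPM at 0–1 hr, and DnaJ-1 3.91-fold higher, with 439 ± 46.3 CPM at 1.5–2.5 hr and 112 ± 46.8 CPM at 0–1 hr. Hsp23 was 2.38-fold lower, with 86.1 ± 7.83 CPM at 1.5–2.5 hr and 205 ± 27.9 CPM at 0–1 hr (edgeR, adjusted p = 6.61e-06).

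The call for Hsc70-4 in SHMT was the weakest of these. It averaged 3526 ± 246 CPM at 1.5–2.5 hr and 4497 ± 1124 CPM at 0–1 hr (SD, n = 3 each), and the groups overlapped. The log2 difference was −0.35 ± 0.15 (SE, edgeR, adjusted p = 0.0417), and 11 of the 19 alternative settings lost the call. Without replicate 3 of the SHMT libraries labelled 0–1 hr it was −0.13 (edgeR, adjusted p = 0.248).

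**Figure D3:**
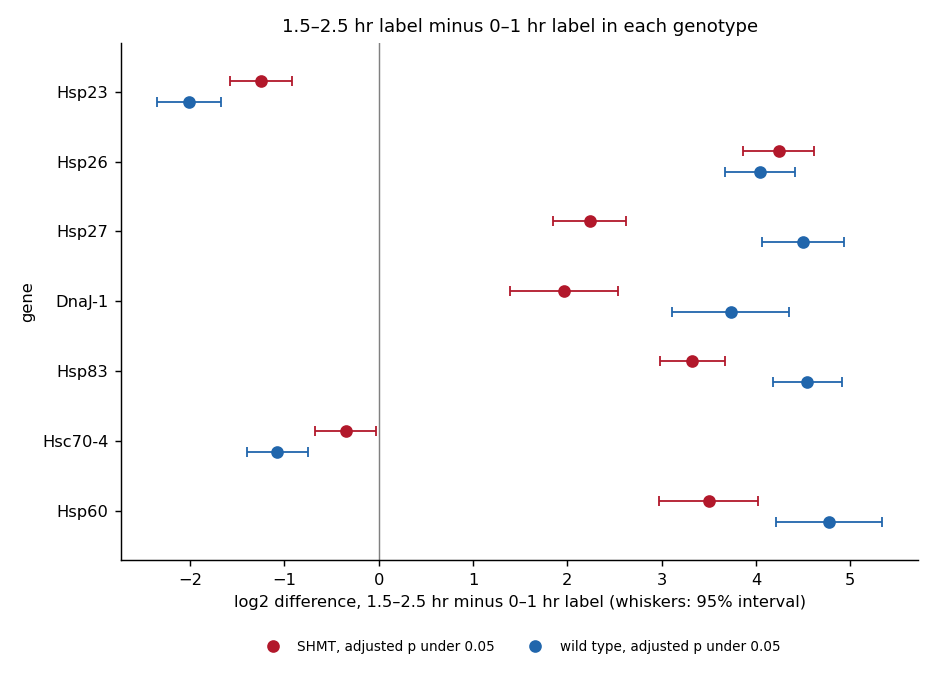
Log2 difference, 1.5–2.5 hr label minus 0–1 hr label, of the 7 tested members in SHMT and in wild-type embryos, with 95% intervals (edgeR). The values for Hsp27 were 2.24 in SHMT and 4.50 in wild type, those for Hsp26 were 4.24 in SHMT and 4.04 in wild type, and Hsp23 and Hsc70-4 were below 0 in each genotype.

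The change between the labels differed between the genotypes for 6 of the 7 members. This was tested as an interaction, the stage difference in SHMT minus the stage difference in wild type, which uses the same 12 libraries as the comparisons above. By edgeR 2 members had a positive interaction, where 12.2% of all genes did, and 4 a negative one, where 26.3% did, 38.5% of all genes passing in either direction. Hsp27 had −2.26 ± 0.25 on the log2 scale (SE, adjusted p = 5.56e-05), with log2 stage differences of 2.24 in SHMT and 4.50 in wild type, and was the only member past 4-fold, where 3.21% of all genes were. DnaJ-1 followed with −1.76 (adjusted p = 0.00313), then Hsp60 with −1.27 (adjusted p = 0.00914) and Hsp83 with −1.22 (adjusted p = 0.000851), all by edgeR. These 4 genes changed in the same direction with the label in each genotype, and by less in SHMT. Hsp23 had 0.76 (edgeR, adjusted p = 0.0150) and Hsc70-4 0.72 (adjusted p = 0.0181), with the smaller fall in SHMT. Their calls were each lost in 1 alternative, that for Hsp23 with library sizes alone (adjusted p = 0.0892) with 403 positive and 2571 negative calls over all genes in place of 839 and 1810, and that for Hsc70-4 without the 2 libraries with over 11% of reads outside genes (adjusted p = 0.0510). Hsp26 had 0.20 with a 95% interval of −0.27 to 0.67 and did not pass (adjusted p = 0.486).

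Set side by side, the small heat shock genes took a larger share of the members' reads at the 1.5–2.5 hr label. The summed CPM of the 4 small genes was 2987, 2844 and 3042 in SHMT libraries and 2691, 2838 and 2786 in wild-type libraries with that label. It was 545, 644 and 502 CPM in SHMT libraries labelled 0–1 hr and 385, 532 and 443 CPM in wild-type libraries. The 4 constitutive genes summed to 7339 to 8023 CPM in SHMT and 7577 to 8027 CPM in wild type at 1.5–2.5 hr, and to 4237 to 6210.0 CPM in SHMT and 6787 to 8374 CPM in wild type at 0–1 hr. As a share of the CPM of all 8 members, the small genes thus made up 27.1 to 28.9% in SHMT and 25.8 to 27.3% in wild type at 1.5–2.5 hr, and 7.49 to 13.2% in SHMT and 5.03 to 7.27% in wild type at 0–1 hr. Most reads of the constitutive genes were those of Hsc70-4 and Hsp83 at 1.5–2.5 hr and those of Hsc70-4 alone at 0–1 hr.

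To compare genes with each other, CPM was divided by the exon length of the gene in kb from the Ensembl annotation of BDGP6. At the 1.5–2.5 hr label Hsp26 was highest in SHMT libraries with 1556 ± 108 CPM per kb (SD, n = 3), followed by Hsc70-4 with 1298, Hsp83 with 1150.0, Hsp27 with 797 and DnaJ-1 with 203 CPM per kb. Hsp60 and Hsp23, with 101 and 97.4 CPM per kb, came last and overlapped in range. In wild-type libraries with this label Hsp26 with 1383, Hsp83 with 1272 and Hsc70-4 with 1247 CPM per kb led and each overlapped with its neighbour in this order. Hsp27 (795 CPM per kb) and DnaJ-1 (174 CPM per kb) came next, and Hsp60 and Hsp23 again shared the lowest place. The order was thus nearly the same in the genotypes.

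At the 0–1 hr label the order was another one. In SHMT libraries Hsc70-4 led with 1656 ± 414 CPM per kb (SD, n = 3), followed by Hsp23 with 232, Hsp27 with 169, Hsp83 with 115, Hsp26 with 82.2, DnaJ-1 with 52.0 and Hsp60 with 8.91 CPM per kb. The ranges of Hsp23 and Hsp27, of Hsp83 and Hsp26, and of Hsp26 and DnaJ-1 overlapped. Wild-type libraries had Hsc70-4 at 2625 ± 339 CPM per kb (SD, n = 3), then Hsp23 at 352, Hsp26 at 84.0, Hsp83 at 54.5, Hsp27 at 35.2, DnaJ-1 at 13.1 and Hsp60 at 3.21 CPM per kb, with no overlap between neighbours. Hsp27 thus stood above Hsp83 and Hsp26 in SHMT and below them in wild type.

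The chaperone genes outside the 8 members were read from lists of 84 genes, of which 59 passed the count minimum. In the comparison at 0–1 hr 22 of the 59 were called higher in SHMT and 16 lower by edgeR, near the 32.9% higher and 25.8% lower of all genes, with a median log2 difference of 0.16 against 0.02 over all genes. With library sizes alone 8 of the 59 were called lower. At the 1.5–2.5 hr label 0 were called higher and 1 lower, 8 of the 59 having an unadjusted p under 0.05, as had 1285 of all 6884 genes. In 8 of the 19 alternatives 1 to 6 of the 59 were called higher. Among these 8 were the fit of only the 2 groups compared, with 6 genes, and DESeq2, with 4. Others among them left out replicate 3 of the SHMT libraries labelled 0–1 hr, with 2 genes, or replicate 1 of that group, with 1. Leaving out replicate 3 of wild type at 1.5–2.5 hr also gave 1. Over the 19 alternatives 1 to 2 were called lower.

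Of the 5 tested mitochondrial chaperone genes 3 were called higher and 1 lower at the 0–1 hr label (median log2 difference 1.00), where 32.9% of all genes were called higher and 58.7% in either direction. Hsc70-5, the mitochondrial Hsp70, had 18.0, 28.2 and 27.6 CPM in SHMT libraries, against 7.82, 7.97 and 9.74 CPM in wild-type libraries, with a log2 difference of 1.53 (edgeR, adjusted p = 2.16e-05). CG11267, the gene of the Hsp10 partner of Hsp60, had 56.2, 64.2 and 45.8 CPM in SHMT libraries, against 17.6, 22.1 and 18.2 CPM in wild-type libraries (log2 1.52, edgeR, adjusted p = 3.13e-06). Their groups did not overlap, like those of Hsp60. Trap1, the mitochondrial Hsp90, also passed (log2 1.00, edgeR, adjusted p = 8.73e-05), and CG4538, which encodes a subunit of a mitochondrial protease, was the member called lower (log2 −0.59, edgeR, adjusted p = 0.00320). Of the 8 CCT subunit genes, whose ring folds actin and tubulin, 5 were called higher and 1 lower (median 0.68), among them Tcp-1zeta with 0.81, Tcp-1eta with 0.76 and CG8258 with 0.76 on the log2 scale. At the 1.5–2.5 hr label 0 genes of these 2 lists were called, and 0 had an unadjusted p under 0.05.

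The 22 tested J-domain genes, cochaperones of Hsp70 like DnaJ-1, gave 7 calls higher and 6 lower at the 0–1 hr label (median −0.06). These counts were near the 32.9% higher and 25.8% lower of all genes. DnaJ-H, an Hsp40 of the cytoplasm, was past 4-fold, with 90.3, 96.5 and 63.7 CPM in SHMT libraries, against 13.7, 19.8 and 20.3 CPM in wild-type libraries (log2 2.22, edgeR, adjusted p = 1.71e-06). P58IPK, a J-domain protein of the ER, had 76.7, 77.4 and 83.5 CPM in SHMT and 17.5, 22.7 and 20.2 CPM in wild type (log2 1.98, edgeR, adjusted p = 8.16e-08). CG8531 went the other way, with 35.3, 37.5 and 32.4 CPM in SHMT and 94.8, 118 and 109 CPM in wild type (log2 −1.61, edgeR, adjusted p = 2.90e-07). For none of these 3 genes did the genotypes overlap, and at the 1.5–2.5 hr label none of the 3 passed.

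At the 0–1 hr label 32.9% of all genes were called higher and 25.8% lower, beside which the counts of the following lists stand. Of the 14 tested Hsp90 paralogs and cochaperones 4 were called higher and 4 lower. Hop, which joins Hsp70 to Hsp90, was among the higher (log2 0.78, edgeR, adjusted p = 0.000407) and nudC among the lower (log2 −0.74, edgeR, adjusted p = 9.96e-05). Trap1 stands in this list and in the mitochondrial one. The 8 ER chaperones gave 3 calls higher (CG2918 with log2 0.61, Cnx99A with 0.55 and Crc, the calreticulin gene, with 0.47) and 3 lower. Of the 3 tested Hsp70 cognates and Hsp110 genes Hsc70-5 was called higher, while Hsc70Cb (log2 0.11) and Hsc70-3 (log2 0.05) did not pass.

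**Figure D4:**
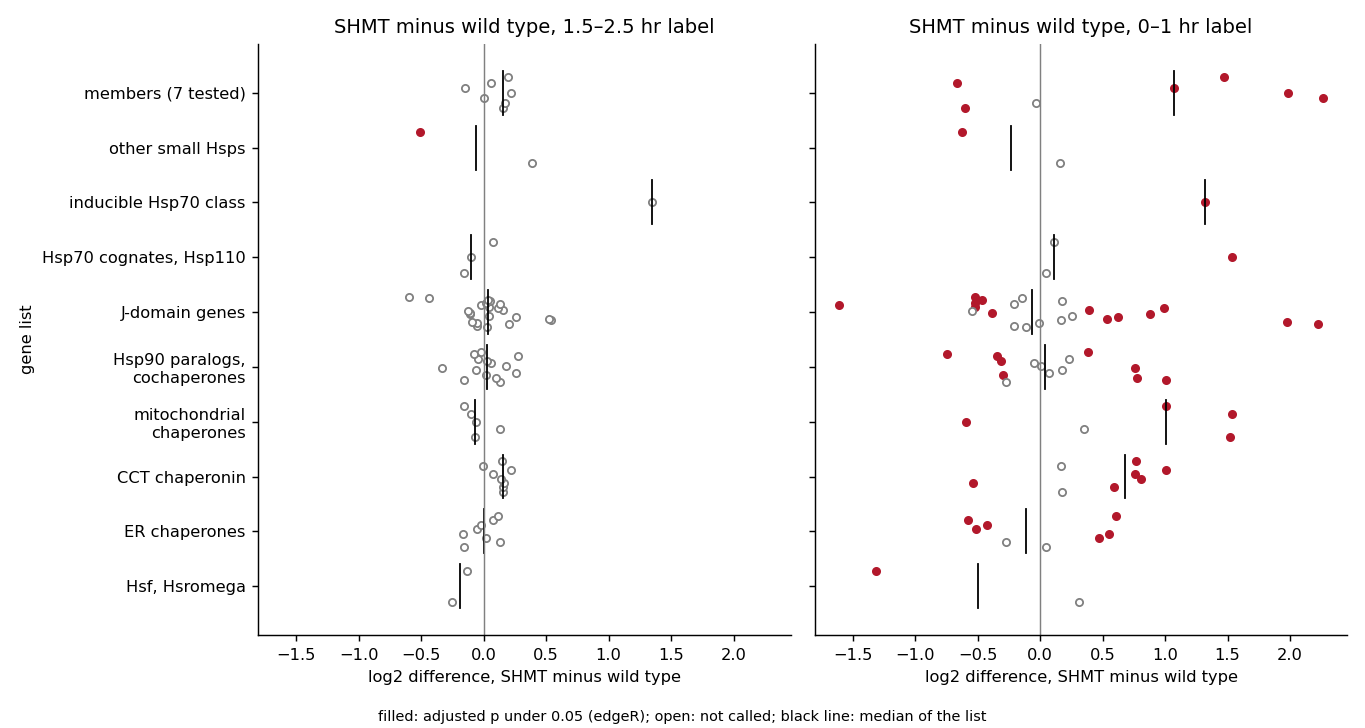
Log2 difference, SHMT minus wild type, of each tested gene of the chaperone lists at the 1.5–2.5 hr label (left) and the 0–1 hr label (right); filled points have an adjusted p under 0.05 (edgeR) and black lines are list medians. On the right 22 of 59 genes outside the members were called higher and 16 lower, where 32.9% and 25.8% of all genes were. On the left 1 was called, where 7.0% of all genes were.

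The genes of the inducible Hsp70 class, the 6 Hsp70 genes and Hsp68, were low throughout. The 6 Hsp70 genes, which hardly any cell transcribes without stress, had 23 counts in all 12 libraries together and at most 6 in a library. They are near-identical copies, so reads that fit several of them may have been lost or split. Hsp68, their relative, had 8.81, 10.7 and 21.9 CPM in SHMT libraries labelled 0–1 hr, against 6.18, 3.90 and 6.41 CPM in wild-type libraries (log2 1.32, edgeR, adjusted p = 0.0121). At the 1.5–2.5 hr label it had 8.65, 6.71 and 6.55 CPM in SHMT, against 2.58, 1.67 and 4.34 CPM in wild type, which did not overlap but did not pass (log2 1.35, edgeR, adjusted p = 0.0646). Its interaction was 0.03 with a 95% interval of −1.13 to 1.20 (edgeR, adjusted p = 0.973), which leaves room for a difference between the labels in either direction.

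Of the other small heat shock genes only HspB8 and Hsp67Ba passed the count minimum. HspB8, a constitutively made small heat shock protein also known as CG14207, was the gene of the 59 called at the 1.5–2.5 hr label. It had 67.1, 77.9 and 70.3 CPM in SHMT libraries with that label, against 101, 101 and 104 CPM in wild-type libraries (log2 −0.51, edgeR, adjusted p = 0.00102). Its values at the 0–1 hr label were 173, 177 and 181 CPM in SHMT libraries, against 277, 281 and 263 CPM in wild-type libraries (log2 −0.63, edgeR, adjusted p = 2.95e-05). The groups did not overlap at either label. Hsp67Ba did not pass at either label (log2 0.38 at 1.5–2.5 hr and 0.16 at 0–1 hr, edgeR). Hsf, the factor that turns on heat shock genes, had a log2 difference of 0.31 at the 0–1 hr label and overlapped between the genotypes (edgeR, adjusted p = 0.0671). At the 1.5–2.5 hr label its difference was −0.25 and did not pass (edgeR, adjusted p = 0.364). There it lay wholly lower in SHMT, where 22.3% of all genes did. Its interaction was −0.56 (edgeR, adjusted p = 0.0357), where 26.3% of all genes had a negative one called. Hsromega, a noncoding RNA induced by heat shock, was called lower in SHMT at the 0–1 hr label (log2 −1.31, edgeR, adjusted p = 0.0214), though its groups, 10.8, 4.67 and 7.88 CPM in SHMT and 32.7, 7.53 and 17.4 CPM in wild type, overlapped.

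Between the labels, the 8 CCT genes were all called higher at 1.5–2.5 hr in SHMT (median log2 difference 2.08) and in wild type (median 2.27), and 4 of the 5 tested mitochondrial chaperones were called higher and 1 lower in each genotype (median 2.00 in SHMT, 3.44 in wild type). Of all genes tested 42.8% were called higher and 44.6% lower in SHMT, and 45.4% higher and 45.9% lower in wild type. The J-domain list was mixed, with 9 genes called higher and 11 lower in SHMT and 8 higher and 10 lower in wild type. Of all 59 genes outside the members, 31 were called higher and 24 lower in SHMT, and 29 higher and 23 lower in wild type, by edgeR, near the shares of all genes.

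The genes whose levels ran most like each member over the 12 libraries were found by the root-mean-square distance of their log2 CPM profiles, each centred on its own mean, among the 6883 other genes tested. This is a description with no test, and all genes share the same libraries. Hsc70-4 lay nearest to CG1622 (0.0791), Hexo1 and CG12773, and Hsp83 nearest to CG13933 (0.0889), Lrr47 and CG11902. For Hsp26 they were L (0.154), CG2950 and CG6180, for Hsp60 CG8399 (0.158), usp and CG42271, and for Hsp27 CG6287 (0.176), Sply and RhoGAP68F. DnaJ-1 lay nearest to CG10981 (0.191), Tango13 and zwilch, and Hsp23 nearest to RpL10Ab (0.204), a ribosomal protein gene, His3.3A and CG3457. None of these 21 genes is a member. The closest pair of members was Hsp60 and Hsp83 at 0.288, where Hsp83 was the gene of rank 25 for Hsp60, followed by Hsp27 and DnaJ-1 at 0.421. Hsp26 and Hsp27 lay 0.943 apart, and Hsp23 lay 2.70 from its neighbour Hsp27.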

How the data were processed

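Illumina RNA-seq reads of whole embryos were converted with CASAVA 1.8.2, aligned to dm3 with Bowtie2 2.1.0 and counted per gene with HTSeq, per the submitters' processing notes. Neither HTSeq's version nor whether it counted by strand is given in the sources used here. The authors deposited raw counts, whole numbers of reads for 14161 symbols, with 5 summary lines left out of library sizes and tests. Of these, reads outside genes (4.57 to 11.7%) and ambiguous reads (1.33 to 1.53%) had counts. Groups came from the sample labels.

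The 6884 genes whose mean reached 50 counts in at least 1 group were fitted over all 12 libraries with 4 group means by edgeR 4.0.16 (limma 3.58.1, R 4.3.3; TMM, quasi-likelihood, Benjamini-Hochberg over all genes). Thresholds of 4-fold and 16-fold follow the study. Per-library depth was 21045142 to 35106444 reads. Lists held symbols of current annotation matched by synonym. Besides the 8 members, the genes named were up to 3 tested genes per list with the lowest adjusted p over both genotype comparisons, those past 4-fold between genotypes, Hsf and Hsromega, and for each member the 3 genes nearest in profile. The members and lists were chosen with earlier results of these data known. CG4538, Hsp22's neighbours and the nearest pairs of members were named after their values were seen.

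Alternatives were DESeq2 1.42.0, RLE scaling, library sizes alone, no count minimum, a fit of only the 2 groups compared, a block for the replicate number, and omission of each library. A further one, chosen after seeing the data, omitted both libraries in which over 11% of reads fell outside genes. The model was tested on simulated data. Figures were drawn with matplotlib 3.10.9.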

Additional observations from a re-analysis of the deposited data

Results flagged for a closer look

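The difference between the stage labels changed with the genotype for 6 members, as tested by the interaction term of the edgeR fit (stage difference in SHMT minus stage difference in wild type, log2). It was −2.26 for Hsp27, −1.76 for DnaJ-1, −1.27 for Hsp60, −1.22 for Hsp83, 0.76 for Hsp23 and 0.72 for Hsc70-4. In the same fit 38.5% of all genes tested had an interaction with an adjusted p under 0.05. At the 0–1 hr label 4 members were called higher and 2 lower in SHMT, where 58.7% of all genes were called in either direction. At the 1.5–2.5 hr label 0 members were called, where 7.0% of all genes were. All genes thus had the same contrast between the labels. The summed zygotic stage markers were 4587 to 8471 CPM in SHMT and 8293 to 11905 CPM in wild-type libraries labelled 0–1 hr. Their part in these interactions was not tested.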

How the results depend on the processing

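Over the alternatives 628 of 658 values of the 7 members kept their direction and their side of the threshold, 14 lost a call and 16 turned sign, all 16 in differences that had not passed. The members called higher numbered the same in each comparison under each alternative, except the interaction, where 1 in place of 2 was positive with library sizes alone (Hsp23 lost) and without the 2 libraries with over 11% of reads outside genes (Hsc70-4 lost). Members called lower at the 0–1 hr label were 1 in place of 2 with library sizes alone. In SHMT between the labels they were 1 in place of 2 with library sizes alone, no count minimum, only the 2 groups compared and without those 2 libraries, and 1 to 2 with each library left out, Hsc70-4 being the gene lost. The sign of Hsp27 at 1.5–2.5 hr (0.0029) turned with library sizes alone (−0.0099), no count minimum (−0.019) and in the range with each library left out (−0.067 to 0.049). Hsp60 at that label had −0.090 to 0.38 with each library left out. Hsp26 at 0–1 hr had 0.19 with library sizes alone, 0.028 with no count minimum, 0.21 without the 2 libraries and −0.18 to 0.16 with each library left out, and its interaction was −0.030 with library sizes alone and −0.0053 without the 2 libraries. Library sizes alone moved the median log2 difference of all genes between the labels to 0.21 in SHMT (TMM −0.06) and 0.48 in wild type (TMM −0.04) and that of the interaction to −0.29 (TMM −0.05). The cause of the other changes was not tested.

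Over all genes, calls between the genotypes at 1.5–2.5 hr were 196 higher and 286 lower, 573 and 653 with only the 2 groups compared, 357 higher with DESeq2, and 126 to 229 higher and 160 to 357 lower with each library left out. At 0–1 hr the 1774 lower calls became 860 with library sizes alone and 1029 without the 2 libraries. The 839 positive interactions became 403, 548 and 1488 with library sizes alone, without the 2 libraries and with DESeq2, and 531 to 1049 with each library left out. The cause was not tested.

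Equal replicate numbers did not pair the samples, the correlations of their deviations running from −0.24 to 0.54. With the replicate number as a block, Hsp27 at 1.5–2.5 hr was −0.0023, and 4 higher and 2 lower members were called at 0–1 hr, as without the block. No call of a member changed.

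As to depth, Hsp60 rested on 517 reads over the 3 wild-type libraries labelled 0–1 hr, and Hsp22 on 0 in all libraries.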
